A study of Mus musculus with 32 samples.

Results

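The Toll-like receptors and their partner Cd14 were followed in RNA from the distal colon of 32 mice, hybridised to Affymetrix expression arrays with 1 array per mouse. The genes described are Tlr1, Tlr2, Tlr3, Tlr4, Tlr5, Tlr6, Tlr7, Tlr9, Tlr13 and Cd14. They were taken by the gene symbol of the platform annotation, not by any measured difference, and each gene is represented by the probe set with the highest mean over the 32 arrays. All 10 genes were found, with 16 probe sets, among 18193 genes in all. The groups were 6 untreated wild-type (WT) mice, 6 untreated mice lacking Myd88 (knockout, KO), 10 treated WT mice and 10 treated KO mice, all of the strain C57 BL6NCr, onto which the knockout had been backcrossed. Treated mice received azoxymethane (AOM, a colon carcinogen) at 10 mg/kg by intraperitoneal injection at an age of 6 to 8 weeks, and 1 week later were given 2% dextran sodium sulfate (DSS, a polymer toxic to the colonic epithelium) in their water for 3 days before they were killed. The labels describe the treated mice as having colitis. They give neither an age nor a vehicle for the untreated mice, and they do not say which part of Myd88 was removed or in which cells, so treatment in these data stands for AOM, DSS and whatever else separated the mice.

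Toll-like receptors are membrane proteins that recognise conserved microbial molecules. Tlr2, paired with Tlr1 or Tlr6, binds bacterial lipoproteins at the cell surface, Tlr4 with Cd14 binds lipopolysaccharide, and Tlr5 binds flagellin. Tlr3, Tlr7, Tlr9 and Tlr13 sit in endosomes and bind double-stranded RNA, single-stranded RNA, unmethylated CpG DNA and bacterial ribosomal RNA. Myd88 is the adaptor through which nearly all of them activate NF-kappaB. Tlr3 signals through the adaptor Ticam1 (TRIF) instead, and Tlr4 uses both. In the colon these receptors are found on epithelial cells and on the macrophages and other immune cells of the wall. Bulk tissue RNA does not tell fewer cells of a type from less RNA per cell.

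RefSeq promoter windows of the mouse build GRCm38.p6 matched 7 of the 10 genes; Tlr4, Tlr7 and Cd14 are named only. The 250 bases before each annotated start were searched on both strands for GGGANTTNC (NF-kappaB), GAAANNGAA (an interferon-stimulated response element, ISRE), TGANTCA (AP-1), TTCNNNGAA (STAT) and GAGGAA (the core letters bound by the myeloid factor PU.1). Of 32851 windows, 3.54% held the NF-kappaB letters, 7.13% the ISRE letters, 6.75% the AP-1 letters, 7.02% the STAT letters and 23.3% the PU.1 letters. The windows of Tlr13 and Tlr9 lie outside the annotated genes and are shown whole, because Tlr13 had the highest and Tlr9 the lowest treated minus untreated difference of the 10 genes in KO mice. Of the windows that reach into the annotated gene, at most 30 bases around the match are shown, for Tlr2 and for Tlr3 and Tlr6, which rose in the KO mice. Each sequence runs 5′ to 3′ on the strand of its gene, with the matched letters in capitals. The NF-kappaB and ISRE letters were each shortened by 1 letter after the matches had been seen; the longer forms are held by fewer windows and matched the same sites of these genes. A match describes the letters and was not tested for binding.
Tlr13, chrX:106143025-106143274, plus strand: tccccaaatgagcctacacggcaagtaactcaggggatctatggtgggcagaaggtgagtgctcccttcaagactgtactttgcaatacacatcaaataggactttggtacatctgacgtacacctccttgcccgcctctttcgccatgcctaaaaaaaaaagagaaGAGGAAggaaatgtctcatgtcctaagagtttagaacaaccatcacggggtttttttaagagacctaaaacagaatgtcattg
Tlr9, chr9:106222348-106222597, plus strand: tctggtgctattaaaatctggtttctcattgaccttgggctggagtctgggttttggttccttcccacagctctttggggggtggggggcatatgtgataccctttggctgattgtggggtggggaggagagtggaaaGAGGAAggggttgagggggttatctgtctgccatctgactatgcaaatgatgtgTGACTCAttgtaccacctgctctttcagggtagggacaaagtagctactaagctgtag
Tlr3, chr8:45410573-45410601, minus strand: agttgtttctGGGAGTTTCctgcttttga
Tlr2, chr3:83841761-83841790, minus strand: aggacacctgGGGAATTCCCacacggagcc
Tlr6, chr5:64959260-64959288, minus strand: tattcttTTCTCTTTCACTTTCtgtttga

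Tlr1, not shown, held the PU.1 core letters beginning 23 bases before its first start and the STAT letters beginning 228 bases before its second. Tlr13 and Tlr9 each held the PU.1 letters once in these bases, beginning 83 and 112 bases before the start, and Tlr9 also held the AP-1 letters, beginning 58 bases before it. Tlr3 and Tlr2 each held the NF-kappaB letters, beginning 211 and 172 bases before the start, and in Tlr2 they were found on both strands, shifted by 1 base. For Tlr6, capitals mark a pair of overlapping ISRE matches on the opposite strand, between 115 and 101 bases before the first of its 2 annotated starts.

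The arrays carried the markers of the labelled tissue. Of 14 colon epithelial markers, 13 were measured, with mean log2 signals over the arrays of 7.41 to 13.49, among them the distal genes Hoxb13 (11.43) and Hoxd13 (10.27). The 7 measured small intestinal genes had means of 3.51 to 7.84. Only 1 of them, Apoa4, lay at the deposited floor of 3.32 (a linear signal of 10) on 16 or more arrays, and the brightest were Fabp2 (7.84) and Rbp2 (7.23). Arrays of 1 group correlated with each other at r = 0.935 to 0.985 over the 18193 genes, but some stood apart in other tissue. The mean of 13 squamous epithelial genes was 11.4 and 10.0 on treated WT repeats 1 and 2. It was at most 8.51 on the remaining arrays of all groups, so results were also computed without that pair. The mean of 8 skeletal muscle genes was 10.42 on treated WT repeat 4, 10.27 on treated KO repeat 9 and 9.74 on untreated WT repeat 3. Its group medians lay between 4.91 and 7.25. Untreated KO repeat 3 was high in both squamous (8.41) and skeletal muscle genes (8.48). Results were also computed with both means as covariates. Of the 10 receptor genes, 6 had a mean signal over the 40th percentile of all genes (5.51), and Tlr5, Tlr6, Tlr7 and Tlr9 did not. Each of those 4 lay at the floor on 1 array, where a lower signal could not be read. The size of a difference can be understated or overstated there, depending on the group of that array.

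Myd88 (chr9:119335934-119340018), the targeted gene, was read by its probe set at a lower level in KO mice. Its log2 signal was 8.40 ± 0.11 (SD, n = 6) in untreated WT and 7.67 ± 0.11 (n = 6) in untreated KO mice, and these groups did not overlap. In treated mice it was 8.46 ± 0.12 (n = 10) in WT and 8.00 ± 0.31 (n = 10) in KO mice, where the KO range of 7.50 to 8.31 reached past the lowest WT array at 8.26. The KO minus WT difference was -0.73 untreated (limma adjusted p = 0.000925) and -0.46 treated (adjusted p = 0.00104). Within KO mice the signal rose after treatment by 0.33 ± 0.10 (adjusted p = 0.0225), which passed in 42 of 48 alternatives. Since the removed part is not given, a remaining signal says nothing about the protein.

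After AOM and DSS, 4 of the 10 genes rose in KO mice, Tlr13, Tlr6, Tlr4 and Tlr3, and none fell. The largest of these differences was that of Tlr13, at 1.95-fold, followed by 1.69-fold for Tlr6, 1.52-fold for Tlr4 and 1.45-fold for Tlr3. The cell-surface partners Tlr1 and Tlr2, the flagellin receptor Tlr5, Tlr7, Tlr9 and Cd14 did not pass the test. In the same comparison 18.7% of all 18193 genes passed at an adjusted p under 0.05 (limma, Benjamini-Hochberg over all genes), and 8.7% of all genes passed upward. The median log2 difference was 0.43 over the 10 genes and 0 over all genes.

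Marker genes of the tissue and of other cells moved in the same comparison, in which 18.7% of all genes passed, 8.7% upward. Of the 13 colon epithelial genes 6 rose and 2 fell, and these included genes of position along the gut: Hoxd13 fell by 0.87 ± 0.15 (adjusted p = 0.000186) and Hoxb13 by 0.53 ± 0.14 (adjusted p = 0.00599), while Cdx2, an intestinal transcription factor, rose by 0.75 ± 0.17 (adjusted p = 0.00249). Hoxd13 was also lower in treated KO than in treated WT mice (-0.51, adjusted p = 0.00828). The mean signal of the 13 genes ranged from 11.60 to 11.75 in untreated KO and 11.58 to 11.94 in treated KO mice. With that mean as a covariate, chosen after seeing the data, the same 4 receptors passed, at 0.98 for Tlr13, 0.82 for Tlr6, 0.58 for Tlr4 and 0.44 for Tlr3. The covariate averages genes that rose and genes that fell, and was 11.68 in untreated and 11.77 in treated KO mice. It therefore cannot stand for the shifts of the single genes. The part of epithelium or of position along the gut in the receptor differences was not tested.

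Of 9 B and plasma cell genes 3 fell, among them Jchain by 2.27 ± 0.27 and Mzb1 by 1.67 ± 0.24, both genes of antibody-secreting cells (adjusted p = 3.35e-06 and 2.85e-05). Jchain and Mzb1 also fell in WT mice, by 1.10 and 1.09. The mean of the 9 genes ranged from 5.28 to 6.64 in untreated KO and 4.61 to 6.33 in treated KO mice, and 0 of the 9 lay at the floor on 16 or more arrays. Of 8 endothelial genes 3 rose, Cdh5, Pecam1 and Tek, with list means of 6.07 to 6.79 in untreated and 6.08 to 7.30 in treated KO mice. Of 8 mast cell genes 2 rose, the mucosal mast cell proteases Mcpt2 (3.62-fold) and Mcpt1 (3.18-fold, passing in 39 of 47 alternatives), with list means of 4.36 to 4.62 and 4.43 to 6.44 and 2 of the 8 at the floor on 16 or more arrays. The part of these cells in the receptor differences was not tested.

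**Figure D1:**
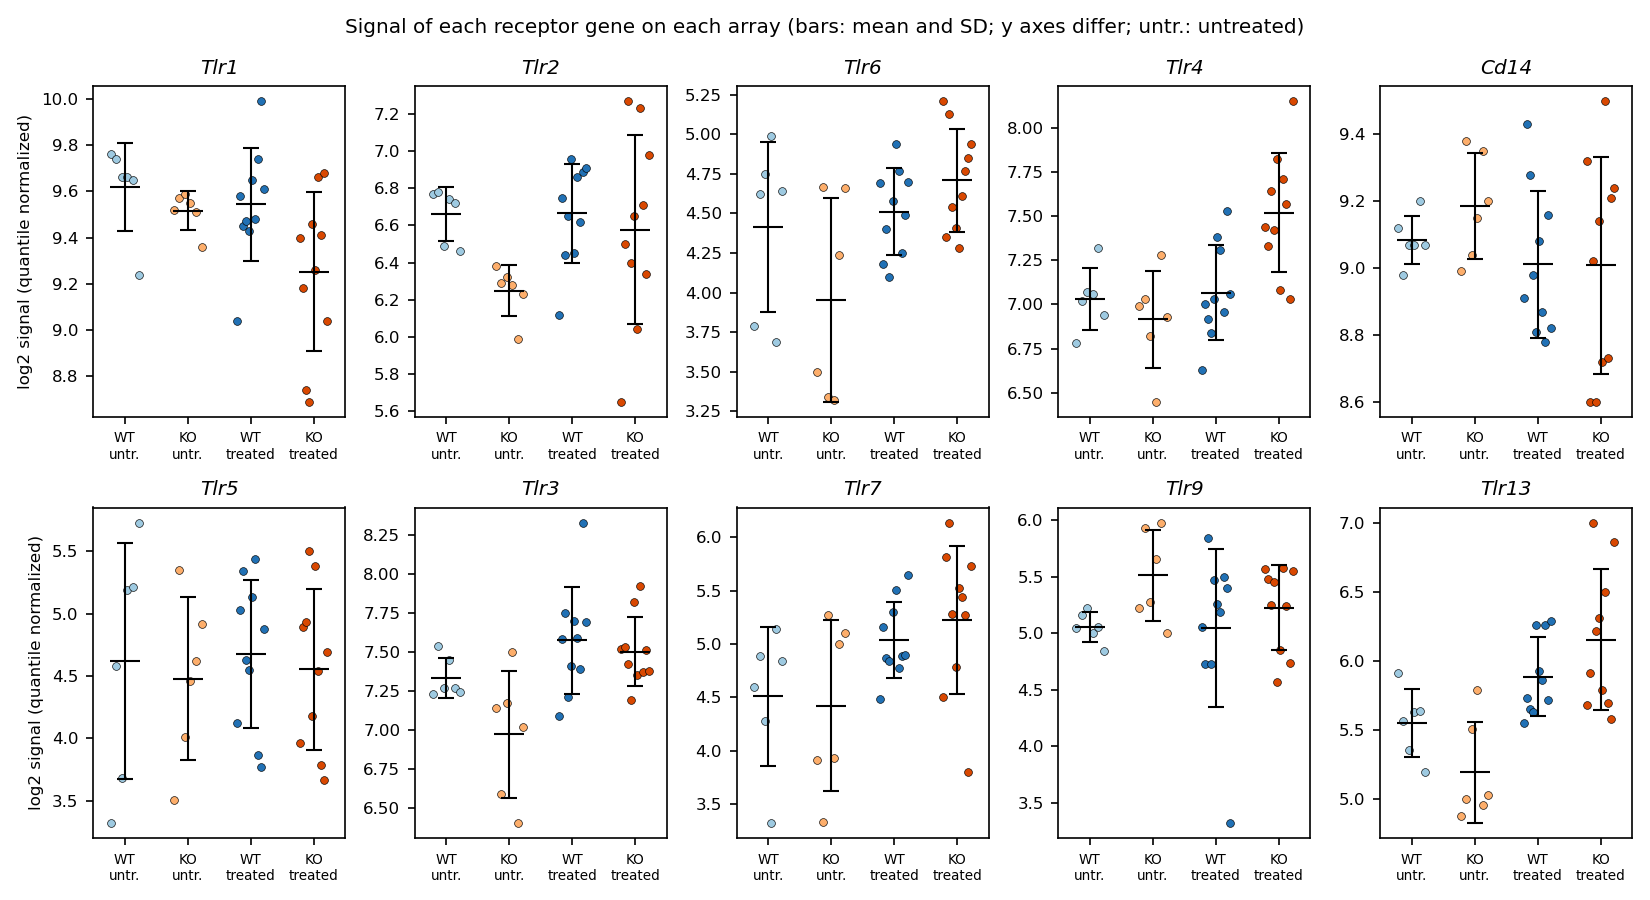
Log2 signal (vertical axes, quantile normalised, a separate scale for each gene) of the 10 receptor genes on each array, with 6 untreated WT, 6 untreated KO, 10 treated WT and 10 treated KO mice; points are mice, long bars the group mean and whiskers the SD. The treated KO mean is the highest of the 4 for Tlr4, Tlr6, Tlr7 and Tlr13, while the groups of Cd14 and Tlr5 lie on each other.

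Among the surface receptors, Tlr4 (chr4:66827551-66846581), the lipopolysaccharide receptor, had log2 signals with a lowest, median and highest value of 6.45, 6.96 and 7.28 in untreated KO mice and 7.03, 7.50 and 8.15 in treated KO mice. The groups overlapped little, with 8 of 10 treated KO arrays above the highest untreated one. The difference was 0.60 ± 0.14 (SE, adjusted p = 0.00366). It passed in 48 of 48 alternative settings, 32 of which left out 1 array, in part an array of WT mice. Tlr6 (chr5:64953092-64970942), which pairs with Tlr2 to bind diacylated lipopeptides, went from 3.32, 3.87 and 4.67 in untreated to 4.28, 4.69 and 5.21 in treated KO mice. It was low in 3 of the untreated KO mice and 5 of the 10 treated arrays stood above all untreated ones. Its difference of 0.75 ± 0.22 had an adjusted p of 0.0145. That call rested on single control arrays, since the adjusted p was 0.0513 without untreated KO repeat 3 and 0.0524 without repeat 4, over a range of 0.00585 to 0.0606 in all alternatives.

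Tlr1 and Tlr2 went in opposite directions without passing the test. Tlr2 (chr3:83836272-83841824), the common partner in lipoprotein recognition, had values of 5.99, 6.28 and 6.38 in untreated KO mice and 5.65, 6.57 and 7.27 in treated KO mice. Of the treated arrays, 7 lay above every untreated one and 1, repeat 1, lay below all of them. The difference was 0.33 ± 0.17 (adjusted p = 0.189), and without treated KO repeat 1 it was 0.43 (adjusted p = 0.0376). Tlr1 (chr5:64924680-64933600), which pairs with Tlr2 to bind triacylated lipopeptides, had values of 9.36, 9.53 and 9.59 in untreated and 8.69, 9.33 and 9.68 in treated KO mice. Its treated arrays spread to both sides, with 5 below and 2 above the untreated range, and the difference was -0.26 ± 0.13 (adjusted p = 0.162).

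Cd14, on chromosome 18, hands lipopolysaccharide to Tlr4. It had values of 8.99, 9.17 and 9.38 in untreated and 8.60, 9.08 and 9.50 in treated KO mice, a difference of -0.18 ± 0.12 (adjusted p = 0.330). The treated range enclosed the untreated one, with 4 arrays below it and 1 above it. Tlr5 (chr1:182954752-182976044) was spread over 3.51, 4.54 and 5.35 in untreated and 3.67, 4.61 and 5.50 in treated KO mice. The groups lay on each other, and the difference of 0.07 had a 95% interval from -0.65 to 0.79, which leaves room for a change in either direction.

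Of the endosomal receptors, Tlr13 (chrX:106143275-106160493), a sensor of bacterial ribosomal RNA in mice, had values of 4.88, 5.01 and 5.79 in untreated and 5.58, 6.06 and 7.00 in treated KO mice. Of the treated arrays, 7 of 10 exceeded the highest untreated one, and repeats 3 and 10, at 7.00 and 6.86, were the highest of all. The difference of 0.96 ± 0.19 (adjusted p = 0.00084) passed in 48 of 48 alternatives. Tlr3 (chr8:45395665-45411075), the double-stranded RNA receptor, went from 6.40, 7.08 and 7.50 to 7.19, 7.46 and 7.92. Here the treated values sat in the upper part of the untreated range and 5 of 10 rose above it. The difference was 0.53 ± 0.15 (adjusted p = 0.0116), but 0.42 with an adjusted p of 0.0514 without untreated KO repeat 5, over a range of 0.00358 to 0.0566 in all alternatives.

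Tlr7 (chrX:167303380-167330574) binds single-stranded RNA. Its values were 3.33, 4.47 and 5.27 in untreated and 3.80, 5.36 and 6.14 in treated KO mice, and 6 treated arrays lay above all untreated ones. The difference of 0.80 ± 0.32 did not pass (adjusted p = 0.0738), with single arrays on either side deciding this: the adjusted p was 0.0471 without treated KO repeat 1, 0.0163 without treated KO repeat 9 and 0.0385 without untreated KO repeat 3. Tlr9 (chr9:106222598-106226876), the CpG DNA receptor, had values of 5.00, 5.47 and 5.98 in untreated and 4.57, 5.35 and 5.58 in treated KO mice. No treated array exceeded the untreated range and 3 fell below it, and the difference was -0.28 ± 0.25 (adjusted p = 0.476). Tlr13 and Tlr7 are X-linked, the labels give no sex, and Xist ranged from 4.58 to 11.9 in treated KO mice. Every group held arrays at both levels of Xist. It was high on repeats 1 to 5 and low on repeats 6 to 10 of both treated groups. In both untreated groups it was high on repeats 1 to 3 and low on repeats 4 to 6. With Xist signal as a covariate the differences were 0.96 for Tlr13 and 0.80 for Tlr7.

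Outside the 10 genes, the mouse family also holds Tlr8, Tlr11 and Tlr12; Tlr11 was not analysed here. Tlr8 went from a median of 4.72 to 4.90 in KO mice (0.17 ± 0.24, adjusted p = 0.700). Tlr12 went from 3.94 to 4.76 (0.61 ± 0.26, adjusted p = 0.0950), with 2 of the 6 untreated KO arrays at the floor.

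In WT mice none of the 10 genes passed the test after the same treatment, against 1.84% of all genes, and none had an unadjusted p under 0.05, which 14.9% of all genes had. The median log2 difference over the 10 genes was 0.05. Tlr13 came closest, with values of 5.20, 5.60 and 5.91 in untreated and 5.55, 5.79 and 6.29 in treated WT mice. Of the treated arrays, 4 lay above the untreated range and none below it, and the difference was 0.34 ± 0.19 (adjusted p = 0.423). Tlr3 went from 7.23, 7.27 and 7.54 to 7.09, 7.59 and 8.33 (0.24 ± 0.15, adjusted p = 0.477) and Tlr7 from 3.32, 4.72 and 5.14 to 4.49, 4.90 and 5.65 (0.53 ± 0.32, adjusted p = 0.457). For Tlr3, 6 of the 10 treated WT arrays lay above the untreated range and 2 below it, and for Tlr7 4 lay above it and none below. For Tlr4, read by its brightest probe set, values of 6.78, 7.04 and 7.32 in untreated and 6.63, 7.01 and 7.53 in treated WT mice covered the same range, with a difference of 0.03 and a 95% interval from -0.26 to 0.33. Its other probe sets are given below. The remaining 6 genes had differences between -0.08 and 0.10.

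**Figure D2:**
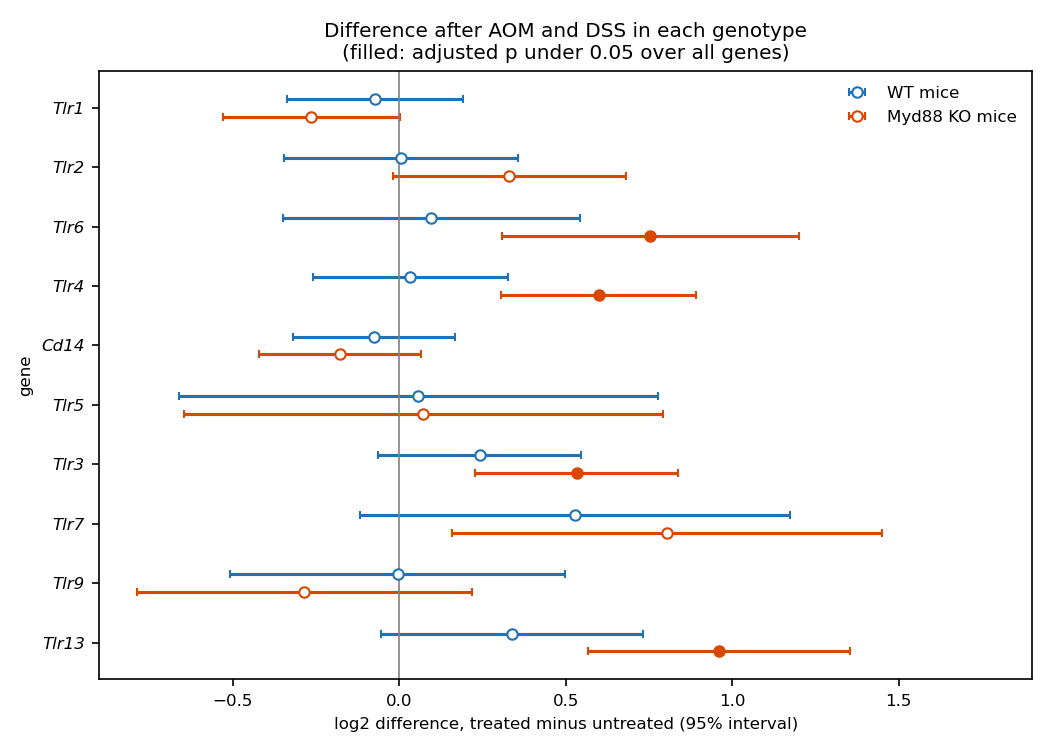
Log2 difference between treated and untreated mice (horizontal axis) for each receptor gene (vertical axis) in WT and in Myd88 KO mice, as points with 95% intervals; filled points passed an adjusted p under 0.05 over all genes. The filled points are Tlr6, Tlr4, Tlr3 and Tlr13 in KO mice, from 0.53 to 0.96, and the interval of each of them overlaps that of the same gene in WT mice. Overlap of such intervals does not test the difference of the responses, which was tested separately.

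A call in KO mice and none in WT mice does not show that the genotypes responded differently, so the difference of the responses was tested. None of the 10 genes passed that test, against 0.055% of all genes; 3 had an unadjusted p under 0.05, as did 11.7% of all genes. The KO response exceeded the WT response by 0.57 ± 0.20 for Tlr4 (adjusted p = 0.250), by 0.62 ± 0.27 for Tlr13 (adjusted p = 0.365) and by 0.66 ± 0.31 for Tlr6 (adjusted p = 0.403). The intervals of the other 7 genes included 0. The median difference of the responses was 0.29 over the 10 genes and 0.00 over all genes.

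Between the genotypes after treatment, Tlr4 alone of the 10 genes passed, in a comparison in which 12.8% of all genes did and 6.24% of all genes were higher in KO mice. Its values were 6.63, 7.01 and 7.53 in WT and 7.03, 7.50 and 8.15 in KO mice. The ranges overlapped, with 5 of 10 KO arrays above the highest WT array and none below the lowest. The KO level was 1.37-fold higher (0.45 ± 0.12, adjusted p = 0.0156). Without the 2 WT arrays rich in squamous genes the difference was 0.39 and no longer passed (adjusted p = 0.0578), while without any 1 array it passed each time, with adjusted p from 0.00467 to 0.0338. With the mean signal of the colon epithelial list as a covariate, chosen after seeing the data, it was 0.42 (adjusted p = 0.0701), the highest adjusted p among 48 alternatives, of which 45 passed.

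Tlr1 ran the other way. Its values were 9.04, 9.53 and 9.99 in treated WT and 8.69, 9.33 and 9.68 in treated KO mice, and the 2 lowest KO arrays, repeats 3 and 4, lay below all WT arrays. The difference of -0.29 ± 0.11 did not pass (adjusted p = 0.0848). It passed without treated WT repeat 1 (-0.35, adjusted p = 0.0327), without treated KO repeat 7 (-0.34, adjusted p = 0.0454) or without repeat 9 (-0.34, adjusted p = 0.0328), and the adjusted p ranged from 0.0327 to 0.421 over all alternatives. Tlr1 also passed in 2 settings in which Tlr4 did not, without treated WT repeats 1 and 2 (-0.35, adjusted p = 0.0489) and with the colon epithelial covariate (-0.39, adjusted p = 0.0480), so that the 1 gene called there was Tlr1, lower in KO mice. Of the other 8 genes, Tlr13 had the largest difference, 0.27 ± 0.17 (adjusted p = 0.332), and Cd14 the smallest, -0.00 with an interval from -0.21 to 0.21.

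In untreated mice none of the 10 genes passed between the genotypes, against 0.115% of all genes, and 2 had an unadjusted p under 0.05, as did 7.17% of all genes. Tlr2 was 6.46, 6.73 and 6.78 in WT and 5.99, 6.28 and 6.38 in KO mice. The groups did not overlap, which was so for 0.951% of all genes. The difference of -0.41 ± 0.19 did not pass (adjusted p = 0.673). That SE used the spread of every group, treated mice included. The SD of Tlr2 was 0.14 in untreated WT and 0.13 in untreated KO mice. In treated mice the SD was 0.27 in WT and 0.51 in KO mice. Over 48 alternatives the adjusted p of this difference ranged from 0.101 to 0.972, and none passed. Tlr3 was 7.23, 7.27 and 7.54 in WT and 6.40, 7.08 and 7.50 in KO mice. All but 1 of the KO arrays lay below the lowest WT array, and the difference was -0.37 ± 0.17 (adjusted p = 0.669). Tlr6 (-0.46 ± 0.24) and Tlr13 (-0.36 ± 0.22) were also nominally lower and Tlr9 (0.46 ± 0.27) nominally higher in KO mice, with adjusted p of 0.737, 0.785 and 0.785. Tlr9 lies on chromosome 9, as the targeted Myd88 does. The part of DNA linked to Myd88 in its genotype differences was not tested. Since the untreated KO mice enter both the comparison of untreated genotypes and the KO response, a low untreated level lowers the former and raises the latter.

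Ordered by their means, Tlr4, Tlr6, Tlr7 and Tlr13 shared 1 sequence of groups: treated KO, treated WT, untreated WT, untreated KO. Among the neighbours in that order only treated KO and treated WT of Tlr4 differed by the test. For Tlr3, treated WT (7.57) and treated KO (7.50) came before untreated WT (7.33) and untreated KO (6.97); neither pair of the same treatment passed, and treated KO was not tested against untreated WT. The 4 group means spanned 0.96 for Tlr13, 0.80 for Tlr7, 0.75 for Tlr6 and 0.18 for Cd14.

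Tlr4, Tlr3 and Tlr7 have more than 1 probe set, and these did not all behave alike. In a fit of every probe set, 3 of the 4 Tlr4 probe sets rose in treated KO mice, by 0.60, 0.90 and 0.67 (adjusted p = 0.00481, 0.00029 and 0.00207), while the fourth differed by -0.02 (adjusted p = 0.989). The KO minus WT difference in treated mice passed only in the brightest Tlr4 probe set, at 0.45 (adjusted p = 0.01998); the other 3 had 0.28, 0.21 and 0.07. With the mean of all probe sets of a gene, that Tlr4 difference was 0.25 (adjusted p = 0.0644). In WT mice the 3 Tlr4 probe sets that rose in KO mice differed by 0.03, 0.31 and 0.50 in the same order, and the fourth by 0.05. None of these passed (lowest adjusted p = 0.0995). The difference of the responses was 0.57, 0.59 and 0.17 for the 3 and -0.06 for the fourth, and none passed. Both Tlr3 probe sets rose in KO mice, by 0.53 and 0.82 (adjusted p = 0.0151 and 0.00523). The 0.80 of Tlr7 came from its brightest probe set, and the other 2 gave 0.09 and 0.16. Which transcripts each probe set reads was not analysed here.

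**Figure D3:**
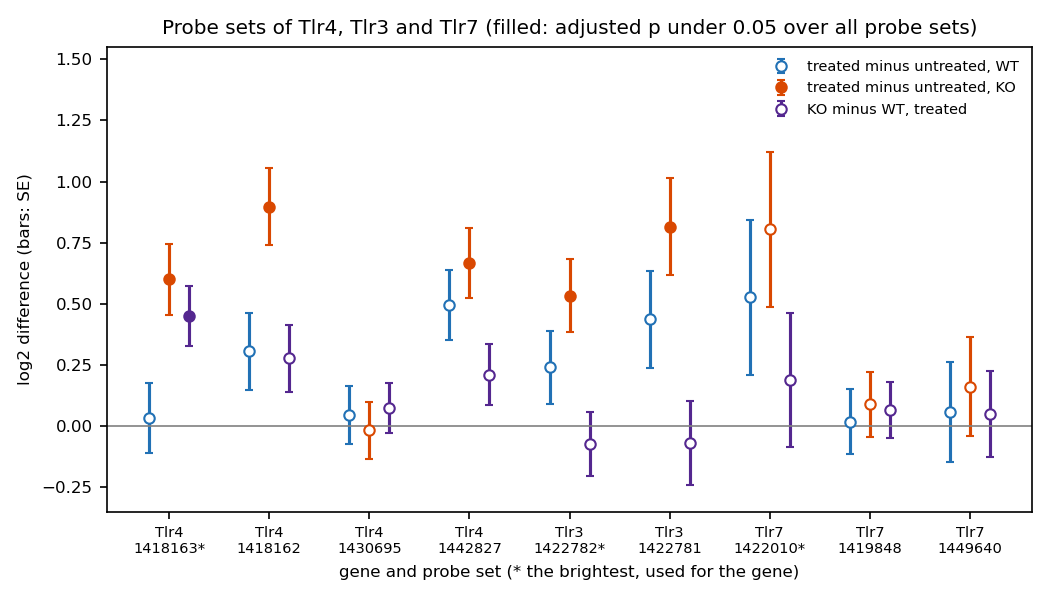
Log2 difference with SE (vertical axis) for each probe set of Tlr4, Tlr3 and Tlr7 (horizontal axis) in WT mice after treatment, in KO mice after treatment, and between genotypes after treatment; filled points passed an adjusted p under 0.05 over all probe sets. For Tlr4, 3 of 4 probe sets are filled for the KO response and 1 of 4 for KO minus WT.

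Macrophages and monocytes carry many of these receptors, and their markers varied widely between treated KO mice. The mean log2 signal of 17 measured marker genes, among them Adgre1 and Csf1r, ranged from 7.09 to 7.74 in untreated WT, 7.12 to 7.62 in untreated KO, 7.44 to 8.25 in treated WT and 6.74 to 8.88 in treated KO mice. None of the 17 lay at the floor on 16 or more arrays. After treatment 2 of the 17 rose in KO mice and 0 in WT mice, where 18.7% and 1.84% of all genes passed in either direction, and 8.7% upward in KO mice. In WT mice 4 of the 17 had an unadjusted p under 0.05, as did 14.9% of all genes, and 16 of 17 were nominally higher in each genotype. Cd68, a lysosomal marker of macrophages, rose by 1.18 ± 0.30 in KO mice (adjusted p = 0.0058, and 0.0607 with only the compared groups fitted). Of 11 neutrophil genes 2 rose in KO and 0 in WT mice (3 in WT mice at an unadjusted p under 0.05), beside the same shares of all genes, and 3 of the 11 lay at the floor on 16 or more arrays.

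Within groups, Tlr13, Tlr2 and Tlr7 varied most closely with the macrophage markers, Tlr4 did so less and Tlr1 ran against them. Over the deviations of the 32 arrays from their group means, the Pearson correlation with the marker mean was 0.702 for Tlr13, 0.705 for Tlr2, 0.593 for Tlr7 and 0.446 for Tlr4 (Spearman 0.601, 0.526, 0.550 and 0.351). It was -0.041 for Tlr3, 0.072 for Tlr6, 0.053 for Tlr9 and -0.082 for Cd14, and -0.482 for Tlr1. For Tlr13, Tlr2 and Tlr7 this was the highest value among the cell type lists, but other lists came near. Tlr7 had 0.584 with fibroblast and 0.513 with smooth muscle markers. Tlr2 had 0.589 with endothelial and 0.509 with fibroblast markers, and Tlr13 had 0.503 with mast cell markers. Tlr1 had -0.646 with fibroblast, -0.562 with endothelial and -0.535 with mast cell markers. These are descriptions over arrays that share hybridisation and scaling. Treated KO repeat 3 had the highest marker mean (8.88) and the highest Tlr13, Tlr2 and Tlr7 of its group, whereas repeat 9 had the lowest marker mean (6.74) with the lowest Tlr13 and Tlr7. Repeat 9 also had the highest skeletal muscle mean of its group (10.27), and repeat 3 had a squamous mean of 8.12. The part of such tissue in these values was not tested.

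With the marker mean as a covariate, the KO response was 0.69 for Tlr13 (adjusted p = 0.00264), 0.47 for Tlr4 (adjusted p = 0.0228), 0.72 for Tlr6 (adjusted p = 0.0396) and 0.55 for Tlr3 (adjusted p = 0.0230). All 4 still passed, while Tlr7 had 0.43 in place of 0.80 and Tlr2 had 0.09 in place of 0.33. The treated KO minus treated WT difference of Tlr1 was -0.31 with this covariate (adjusted p = 0.0331). The part of cell number in these values was not tested.

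**Figure D4:**
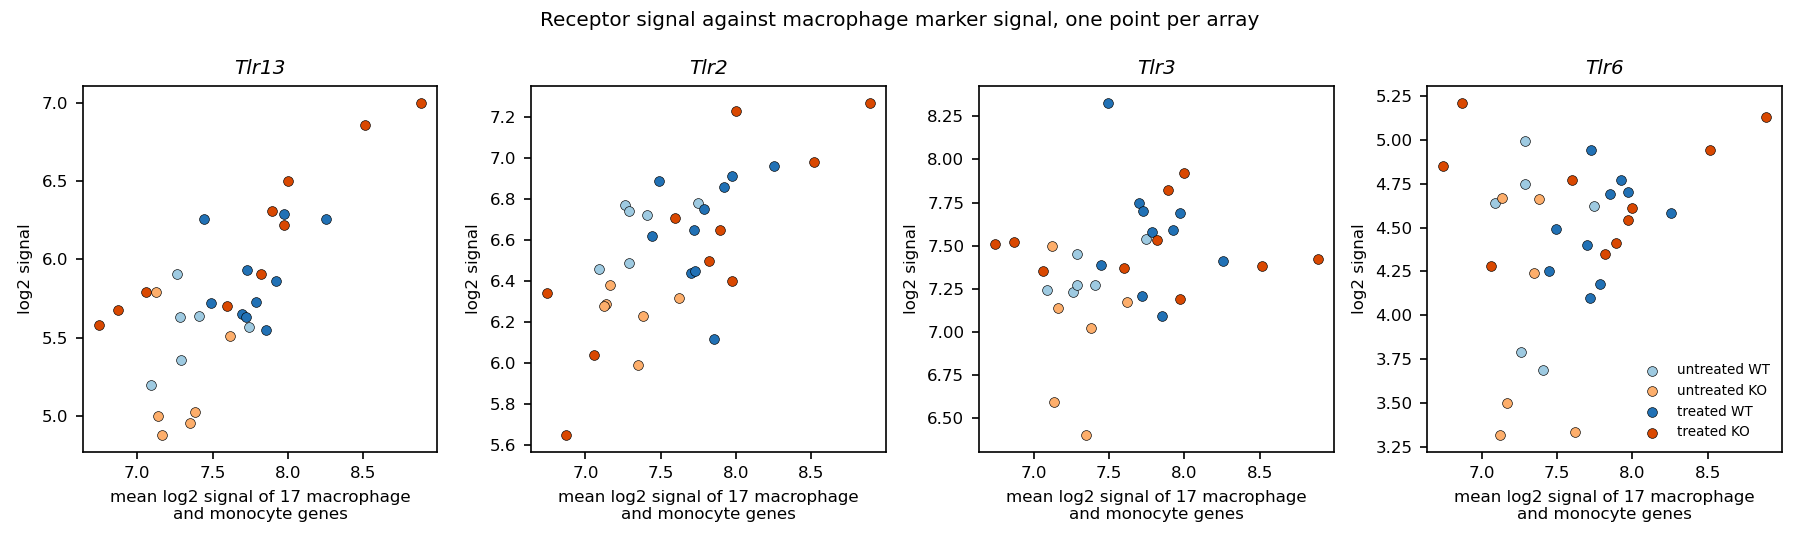
Log2 signal of Tlr13, Tlr2, Tlr3 and Tlr6 (vertical axes, separate scales) against the mean log2 signal of 17 macrophage and monocyte genes (horizontal axes), with 1 point per mouse coloured by group. Tlr13 and Tlr2 are higher where the markers are high, with within-group r of 0.702 and 0.705, and Tlr3 and Tlr6 are not, with r of -0.041 and 0.072.

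The receptors were only loosely tied to each other. The highest Pearson correlations of within-group deviations among the 45 pairs were 0.672 for Tlr2 and Tlr13 (Spearman 0.616) and 0.530 for Tlr1 and Tlr3 (Spearman 0.439). Tlr4 and Cd14, which act together on lipopolysaccharide, had 0.317, and Tlr2 had 0.072 with Tlr1 and -0.067 with Tlr6. The other genes, with predicted genes and clones left out, were searched for the highest Pearson correlation of within-group deviations with each receptor. Each gene named is among the highest of very many correlations, and how high such a maximum runs was not tested. For Tlr4 the closest gene was Casp4 (r = 0.748, Spearman 0.666), the inflammatory caspase that binds cytosolic lipopolysaccharide. For Tlr13 it was Il5ra (0.781), followed by Plek (0.774), a protein of platelets and leukocytes, and the acute-phase gene Saa1 (0.755). It was Ccbe1 for Tlr2 (0.824), Zfp119b for Tlr1 (0.894), Brpf3 for Tlr3 (0.817), Hrh2 for Tlr6 (0.734), Gabbr1 for Tlr7 (0.732), Il6ra for Tlr9 (0.638), Septin9 for Tlr5 (0.752) and Txndc12 for Cd14 (0.776). Cd14 ran against smooth muscle markers (-0.619) and Tlr1 against fibroblast markers (-0.646).

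Of 11 measured co-receptors and chaperones of the family, 2 rose in treated KO mice and none in treated WT mice, with a median difference of 0.21 and 0.06. Of all genes 18.7% passed in KO mice, 8.7% upward, and 1.84% in WT mice. In the list 3 and 2 had an unadjusted p under 0.05 in limma's test, as did 31.2% and 14.9% of all genes. Lbp, the plasma protein that carries lipopolysaccharide to Cd14, rose 2.83-fold (SE 0.31 on the log2 scale, adjusted p = 0.000968). Its values were 5.96, 6.23 and 7.18 in untreated and 6.51, 7.85 and 9.23 in treated KO mice, and its means in WT mice were 6.42 untreated and 7.48 treated. Hsp90b1, the chaperone that folds most surface Toll-like receptors, rose by 0.51 ± 0.10 (adjusted p = 0.00113), and by 0.36 ± 0.10 in WT mice without passing (adjusted p = 0.0696). The brightest gene of the list that did not pass in KO mice was Cd36, a scavenger receptor that works with Tlr2 and Tlr6, at 0.15 ± 0.35. Between treated genotypes, where 12.8% of all genes passed, 1 of 11 did, Cnpy3, a chaperone partner of Hsp90b1 (0.24 ± 0.08, adjusted p = 0.0484). It passed in 12 of 48 alternatives, with adjusted p up to 0.243. The WT count of 0 was 2 without treated KO repeat 3 or 9 and 1 without treated KO repeat 4 or 7, and it was above 0 in 9 of 48 alternatives.

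Among 20 measured adaptors and kinases, 7 rose in treated KO mice, 1 of them Myd88 itself, and 0 in treated WT mice, where 0 also had an unadjusted p under 0.05. Of all genes 18.7% passed in KO mice, 8.7% upward, and 1.84% in WT mice. The largest was Ticam1, the adaptor of Tlr3 and Tlr4 that does not need Myd88, with 6.17, 6.59 and 6.82 in untreated and 6.53, 7.18 and 7.87 in treated KO mice. It rose by 0.68 ± 0.14 (adjusted p = 0.00127), against -0.08 ± 0.14 in WT mice, and the difference of the responses of 0.75 ± 0.20 did not pass (adjusted p = 0.138). Ticam1 was also higher in treated KO than in treated WT mice, by 0.54 ± 0.12 (adjusted p = 0.00418). The kinases that Myd88 recruits, Irak1 (0.49 ± 0.13, adjusted p = 0.0127) and Irak2 (0.31 ± 0.07, adjusted p = 0.00427), were likewise higher there, in a count of 4 higher and 2 lower that includes Myd88. Between treated genotypes 12.8% of all genes passed. The count of 7 in the KO response was 3 without untreated KO repeat 5 and 4 without untreated KO repeat 2, 3 with the macrophage markers as a covariate and 2 with only the compared groups fitted. With the colon epithelial covariate 2 of the 20 passed between treated genotypes in place of 6, and neither Ticam1 (adjusted p = 0.0576), Irak1 (0.108) nor Irak2 (0.0600) was among them.

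Of 25 genes that Toll-like receptor signalling is known to induce, 11 rose in treated KO mice, none fell, and none passed in treated WT mice, with medians of 0.54 and 0.21. Of all genes 18.7% passed in KO mice, 8.7% upward, and 1.84% in WT mice. In WT mice 6 had an unadjusted p under 0.05, as did 14.9% of all genes. Of the 25, 5 lay at the floor on 16 or more arrays (Tnf, Il6, Ccl3, Acod1 and, on all 32, Nos2), where a fall can hardly be measured. Socs3, a feedback inhibitor of cytokine signalling, rose 4.95-fold (2.31 ± 0.53, adjusted p = 0.00248) and Cxcl10, an interferon-induced chemokine, 2.74-fold (1.45 ± 0.25, adjusted p = 0.000197). In WT mice these genes had 1.24 ± 0.53 and 0.89 ± 0.25 (adjusted p = 0.250 and 0.0617), and none of the 25 passed the test of the difference of the responses, where 2 had an unadjusted p under 0.05, as did 11.7% of all genes. The brightest gene that did not pass was Nfkbia, the NF-kappaB inhibitor, at -0.30 ± 0.15 in KO mice. Nfkbia was lower in treated KO than in treated WT mice (-0.53 ± 0.13, adjusted p = 0.0063), but with median centring the difference was -0.34 (adjusted p = 0.112). In that comparison 2 of 25 were higher and 1 lower, where 12.8% of all genes passed. The 2 higher genes were Ptgs2 (1.12 ± 0.35, adjusted p = 0.0303) and Ccl3 (0.76 ± 0.22, adjusted p = 0.0185). They passed in 40 of 48 and in 44 of 47 alternatives. The count of 3 ranged from 0 with the colon epithelial covariate, through 1 with only the compared groups fitted or with the 3'/5' signal as a covariate, to 6 with the macrophage covariate. It was 6, 5 and 5 without treated KO repeats 1, 6 and 9. The count of 11 in KO mice was 4 with the macrophage markers as a covariate and 5 with only the compared groups fitted. The WT count of 0 was 1 without treated WT repeat 3 or 8, treated KO repeat 3 or untreated WT repeat 1, and 2 at most in 48 alternatives. The 3 lists were chosen with earlier results of these samples known, so they are not independent evidence of a direction.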

How the data were processed

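Per the labels, RNA of the distal colon of each mouse was hybridised to 1 array. The authors deposited log2 signals per probe set; the 2% trimmed mean of the linear values was 150.9 to 151.3 on every array, signals below 10 had been set to 10, which held for 18.7% to 23.9% of each array. The software that summarised the probes is not given in the sources used here. Of 45101 probe sets 64 were controls and were left out of the tests. Depth does not apply, and the number of arrays limits the precision.

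The values were quantile normalised and the brightest probe set with 1 platform symbol was kept for each of 18193 genes. Group means over all 32 arrays were fitted with limma 3.58.1 in R 4.3.3 (28 residual and 1.1 prior degrees of freedom, two-sided, Benjamini-Hochberg over all genes, threshold 0.05), a script that was also tested on simulated data. Differences are log2, with SE. The members, pathway and marker lists were chosen with earlier results of these data known. Beyond the 10 genes, the text names up to 4 genes of a list that passed and the brightest that did not, and the genes with the highest correlation to each member. Alternatives changed scaling, probe set, filter, threshold, weights, prior, samples and covariates, or left out each array. Leaving out 1 array made up 32 of the 48 or 47 alternatives of a gene. An array of a group outside a comparison changes only the spread used there, so passing without it is a weak check. Positions and promoters are RefSeq's on GRCm38.p6.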

Additional observations from a re-analysis of the deposited data

Results flagged for a closer look

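In 3 of 40 group and gene combinations, 1 array stood far from the rest of its group, where chance gives about 1 in 20. Tlr1 was 9.24 on untreated WT repeat 6, against 9.65 to 9.76 on the other 5 arrays. Tlr1 was also low on untreated KO repeat 6, at 9.36 against 9.51 to 9.59. Tlr9 was at the floor of 3.32 on treated WT repeat 10, against 4.73 to 5.84 on the other 9 arrays.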

How the results depend on the processing

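The counts of receptor genes that passed were 0 under 50 of 50 alternatives for the WT response, for untreated KO against WT and for the difference of the responses. For treated KO against WT the count of 1 became 0 with the mean of all probe sets, at an adjusted p under 0.01 and with at least 1.5-fold, 2 with the macrophage covariate (Tlr4 and Tlr1), 1 but Tlr1 in place of Tlr4 with the colon epithelium covariate or without treated WT repeats 1 and 2, and 1 to 2 when any array was left out. The KO response count of 4 was 2 at an adjusted p under 0.01, 3 with at least 1.5-fold and 3 to 6 with any array left out. It was also 3 with genes under the 40th percentile left out, a filter that removes Tlr6. It stayed 4 with the squamous and skeletal muscle covariates. Arrays of the same repeat number were not paired by the data: of 40 such pairs 3 correlated over 0.1, and 1 of 32 arrays was closest to its own number. With repeat number as a replicate block the KO response lost Tlr3 (0.46, adjusted p = 0.0566) and Tlr6 (0.71, adjusted p = 0.0606) and gained Tlr1 (-0.38, adjusted p = 0.0357) and Tlr7 (0.86, adjusted p = 0.0481), so that 4 passed. In that block, repeats 4 and 5 joined treated arrays high in Xist with untreated arrays low in it. With only the compared groups fitted, Tlr6 had an adjusted p of 0.0510. Signs turned in at least 1 alternative for 16 of the 50 receptor differences, none past the threshold and all of a reported size of at most 0.177. Turns by at least 1 SE were those of Tlr2 in WT mice (-0.24) and Cd36 in KO mice (-0.25) with the macrophage covariate, of Tbk1 between treated genotypes with median centring (0.053), and of Tab2 between untreated genotypes with the mean of all probe sets (0.021). S100a8, a neutrophil gene, turned between treated genotypes to 0.31 with array weights, 0.57 with squamous and skeletal muscle covariates, 0.36 without treated WT repeats 1 and 2 and 0.56 with the colon epithelium covariate, and to 0.74 in the difference of the responses with the last; the cause was not tested. Values at the floor can understate or overstate differences of the dim receptors.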
